A study of Mus musculus with 8 samples.

Results

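Cytotoxic granule genes were followed as 5 members chosen by symbol: Gzmb, Prf1, Nkg7, Ctsw and Serpinb9, all 5 of which stood among the 11841 symbols of the table. The RNA came from skin-draining lymph nodes of BALB/cAJcl mice, from T cells sorted as CD4+ and CD44+, which are helper cells that have met antigen. The mice were wild type (WT), T-bet-/- (called T-bet-null here), STAT6-/- (STAT6-null) or T-bet-/- STAT6-/- (double-null), with 2 libraries each. Cells of all 4 genotypes had been given PMA and ionomycin over 2 h, so none of the values describes resting cells. The labels give neither age nor sex, nor how many mice a library holds, so the spread behind every p-value is that between libraries and may be technical.

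Cytotoxic lymphocytes kill by releasing granules in which perforin, the product of Prf1, opens the target membrane and granzymes enter to cleave proteins of the target. Nkg7 encodes a membrane protein of the granules that is needed for their release, and Ctsw encodes cathepsin W, a protease found mainly in cytotoxic cells. Serpinb9 encodes the serpin that inhibits granzyme B inside the cell that makes it. Killing is best known from CD8 T cells and NK cells, but helper T cells can take up parts of the programme. T-bet, the factor of Th1 cells, is known as an activator of granule genes, while STAT6 carries the IL-4 signal.

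The promoters of Gzmb and Nkg7 are shown first because the levels of these genes are compared below. RefSeq (GRCm38.p6, the build mm10 is drawn from, in C57BL/6J sequence) held a promoter window for 4 members, Ctsw having none in the table used. Each line gives the 250 bases before the transcript start, read 5′ to 3′ on the strand of the gene, with capitals at motif matches. The Gzmb window is chr14:56262335-56262584 on the minus strand, and the Nkg7 window is chr7:43436888-43437137 on the plus strand. Both end where the gene spans given below begin. The windows of Prf1 (chr10:61297586-61297835) and Serpinb9 (chr13:33004291-33004540), both on the plus strand, belong to transcript starts inside the gene spans given below. For these genes the bases before the outer start of the span were not searched as a window of their own.
Gzmb: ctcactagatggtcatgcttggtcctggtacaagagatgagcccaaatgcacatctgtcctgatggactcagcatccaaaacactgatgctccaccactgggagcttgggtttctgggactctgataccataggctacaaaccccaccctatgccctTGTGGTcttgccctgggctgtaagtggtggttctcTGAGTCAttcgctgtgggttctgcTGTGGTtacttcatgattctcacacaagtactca
Nkg7: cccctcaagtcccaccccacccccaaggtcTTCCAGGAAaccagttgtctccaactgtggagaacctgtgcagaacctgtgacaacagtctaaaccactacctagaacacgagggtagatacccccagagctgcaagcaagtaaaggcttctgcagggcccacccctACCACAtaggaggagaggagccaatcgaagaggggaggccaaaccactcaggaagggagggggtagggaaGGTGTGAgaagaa

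In all, 5 letter patterns were searched on both strands, and none of the matches overlapped another. The T-box letters GGTGTGA, which T-bet can bind, stood in the Nkg7 window, 13 to 7 bases before the start, and in none of the other 3. They occur in 3.33% of all 32851 promoter windows of that length. The STAT letters TTCNNNGAA stood in the Nkg7 window too, 220 to 212 bases before the start (7.02% of all windows), and the STAT pattern with 4 bases between its arms, which STAT6 prefers, in none of the 4 (5.85%). The RUNX letters TGTGGT stood in the windows of Gzmb (93 to 88 and 34 to 29 bases before the start), Prf1 and Nkg7 (the last 2 on the reverse strand), against 14% of all windows. The AP-1 letters TGANTCA stood in the Gzmb window, 58 to 52 bases before the start (6.75%). A match describes letters only: it is no measured site, and its absence says nothing of a factor acting elsewhere.

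**Figure D1:**
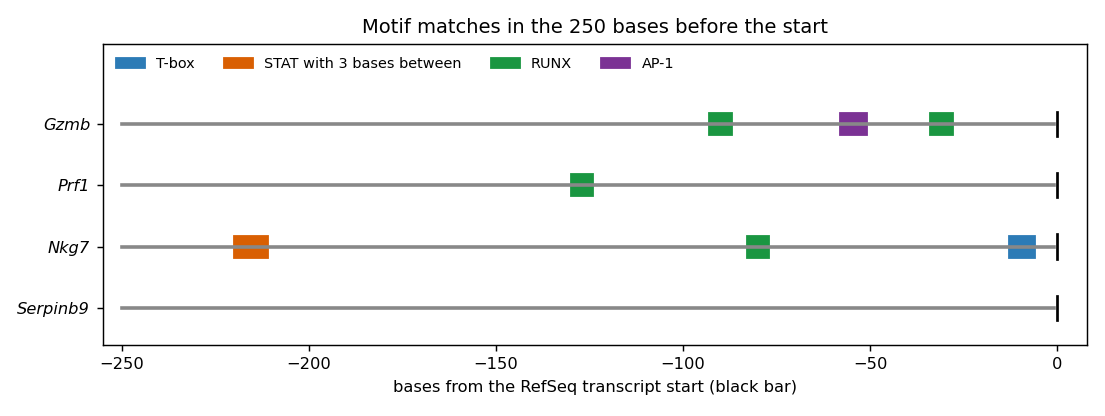
Motif matches in the 250 bases before the RefSeq start of 4 members; the x axis is the distance in bases from the start (black bar), and each coloured box is 1 match. In these windows Nkg7 alone of the 4 holds the T-box letters, close to its start, Gzmb holds 2 RUNX matches and the AP-1 match, and Serpinb9 holds none. The starts used for Prf1 and Serpinb9 lie inside their gene spans.

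Both targeted genes were lowest where the labels place their loss: Tbx21 at 1.44 to 2.49 FPKM in libraries without T-bet against 30.8 to 102 in the others, and Stat6 at 26.9 to 31.6 without STAT6 against 88.8 to 90.9. FPKM counts fragments per length of transcript and per depth, so levels can be set side by side between genes. Depth differed little, from 0.856 to 1.04 of that of WT library 1, as read from whole steps in genes of low value. In each other library 62 to 80 of 503 such genes lay on the steps, against a median of 4 or 5 at other depths tried. The helper T cell markers were all in the table (11 of 11, with Cd4 at 88.1 to 208 FPKM). The WT libraries stood apart from the others. They held 224 to 442 FPKM of 2 listed erythroid genes against at most 7.48 elsewhere, and the Y-linked gene Ddx3y at 60.1 and 66.0 FPKM against 15.8 to 36.6. Comparisons with WT may therefore hold more than the losses, and how much was not tested.

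Few markers of other killer cells were in the table, and they were not all below the members. Of 2 CD8 T cell markers Cd8b1 was in the table, at 3.02 to 5.60 FPKM, and Cd8a was not. Cd8b1 stood above Prf1 in every library (at most 1.45 FPKM) and above Nkg7 in the double-null libraries (1.43 and 1.57). Cd8b1 was higher in both WT libraries (5.60 and 4.90) than in the 6 mutant libraries (at most 4.46), which overlapped. Against WT it was called lower in T-bet-null (-0.37, limma adjusted p = 0.0415) and STAT6-null cells (-0.46, adjusted p = 0.0164), so it moved with Nkg7 and Ctsw there. Of 16 NK and innate-like markers 5 were in the table. Their summed level was 4.01 to 5.07 FPKM in WT, 2.88 to 3.40 in T-bet-null, 3.0 to 3.51 in STAT6-null and 2.46 to 2.50 in double-null libraries. Ncr1, Klrb1c and Eomes were not in the table, which holds no line at or under 0.1 FPKM in any library. The NK sum was thus highest in WT and lowest in double-null libraries, as Nkg7 was. None of the 5 markers alone had both its highest mean in WT and its lowest in double-null libraries. Tyrobp, Fcer1g and Zbtb16 had higher means in WT than in double-null libraries. Klrd1 (0.256 against 0.397 FPKM) and Klrk1 (0.655 against 0.725) had lower means in WT. Of 10 myeloid and dendritic markers 4 were in the table, among them Cst3, which is also listed below as an inhibitor. They summed to 181 to 186 FPKM in WT, 96.8 to 103 in T-bet-null, 139 to 140 in STAT6-null and 109 to 131 in double-null libraries, while Csf1r, Itgam and Spi1 were not in the table. The 7 of 8 B cell markers in the table summed to 19.9 to 31.4, 12.6 to 12.7, 16.4 to 37.9 and 14.1 to 15.2 FPKM in that order. The part of the CD8, NK, myeloid and B cell markers in the results was not tested. In such bulk samples fewer granule-bearing cells and less RNA per cell cannot be told apart.

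Gzmb (Entrez Gene 14939, mm10 chr14:56258836-56262334), which encodes the granzyme that starts cell death by cleaving caspases, reached 13.1 and 12.9 FPKM in WT. It reached 15.6 and 16.5 in T-bet-null, 138 and 135 in STAT6-null, and 109 and 197 FPKM in double-null libraries. All 4 libraries without STAT6 lay above all 4 with it, whether or not T-bet was present. Gzmb was the most abundant member by far in those 4 libraries, while in WT it stood below both Nkg7 and Ctsw.

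The level of Gzmb in STAT6-null cells, 136 ± 2.50 FPKM (mean ± SD, n = 2), was 8.51 times that in T-bet-null cells, 16 ± 0.663. In the limma fit its log2 difference on FPKM + 1 was 3.01 ± 0.21 (SE), with adjusted p = 2.16e-05. In cells without T-bet, those also without STAT6 were higher by about the same size. The double-null mean of 153 ± 62.7 FPKM was 9.55 times the T-bet-null mean (log2 3.11 ± 0.21, adjusted p = 3.07e-05 in limma). Against WT the mean was 10.5 times higher in STAT6-null cells (log2 3.29) and 11.8 times higher in double-null cells (log2 3.40 ± 0.21, adjusted p = 1.09e-06 in limma).

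Loss of T-bet gave smaller differences in Gzmb. In STAT6-sufficient cells its mean was 1.23 times higher without T-bet, and the WT and T-bet-null libraries did not overlap. That difference was not called (log2 0.28 ± 0.21, limma adjusted p = 0.256). It was called when limma was fitted to those 4 libraries alone (adjusted p = 0.00496), and without double-null library 1 (adjusted p = 0.00138) or 2 (adjusted p = 0.00142). In STAT6-null cells the double-null libraries lay on either side of the STAT6-null ones, and the difference was 0.10 ± 0.21 (limma adjusted p = 0.779). It was 0.53 without double-null library 1 (adjusted p = 0.0017) and -0.33 without double-null library 2 (adjusted p = 0.0158), so its direction rests on which library is kept.

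The double-null libraries differed 1.82-fold in Gzmb, and 17 of 3674 genes of at least 16 FPKM in that genotype (0.463%) lay at least as far apart. Nkg7 (1.10-fold) and Ctsw (4.16 and 4.13 FPKM) differed little between the same libraries. The Y-linked gene Ddx3y differed alongside Gzmb, at 16.2 and 36.6 FPKM, and so did Eif2s3y, at 10.5 and 24.0. Their part in the spread of Gzmb was not tested.

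Mast cells and basophils can make granzyme B, so their markers were read beside it. Of 8 listed, Kit and Hdc were in the table, and Cpa3, Fcer1a, Mcpt8, Ms4a2, Cma1 and Tpsb2 were not. Kit, a growth factor receptor that some T cells also express, stood at 18.1 and 18.6 FPKM in WT, 8.67 and 8.11 in T-bet-null, 32.5 and 34.0 in STAT6-null and 56.7 and 62.9 in double-null libraries. Hdc, the enzyme that makes histamine, stayed between 0.927 and 1.41 FPKM in all 8. The summed level of both, nearly all of it Kit, was 9.52 to 19.9 FPKM with STAT6 and 33.7 to 64.0 without it. Like Gzmb, it was thus higher without STAT6. Kit parted from Gzmb in T-bet-null cells, with a mean of 8.39 FPKM against 18.3 in WT, where Gzmb was 1.23 times higher. It was also higher in double-null (59.8) than in STAT6-null cells (33.2), where the Gzmb libraries overlapped. The part of such cells in Gzmb was not tested.

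Prf1 (Entrez Gene 18646, chr10:61297751-61304684), the pore former, was the least abundant member. It stood at 1.45 and 1.22 FPKM in WT, 0.383 and 0.292 in T-bet-null, 1.33 and 0.950 in STAT6-null and 0.672 and 0.766 FPKM in double-null libraries. The T-bet-null libraries were lowest and the double-null ones next, while WT and STAT6-null libraries overlapped. Prf1 was tested only because WT and STAT6-null library 1 reached 1 FPKM, and a pseudocount of 1 shrinks fold changes at such levels. With a pseudocount of 0.1 its difference between T-bet-null cells and WT was -1.71 in place of -0.80, and that between double-null and T-bet-null cells 0.91 in place of 0.36, with the same calls.

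The Prf1 values lay on whole steps to within 0.00118 of a step, read here as single fragments. They were 62 and 54 fragments in WT, 14 and 12 in T-bet-null, 55 and 41 in STAT6-null and 27 and 34 in double-null libraries. Per depth, Prf1 in T-bet-null cells was at 0.252 of the WT level (95% exact binomial interval 0.158 to 0.388). Double-null cells held 2.15 times as much Prf1 as T-bet-null cells (1.34 to 3.55) and 0.636 of the STAT6-null level (0.453 to 0.885). These intervals cover counting error only.

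In limma, Prf1 fell by 0.80 ± 0.11 on the log2 scale in T-bet-null cells against WT (adjusted p = 0.000156) and by 0.44 in double-null cells (adjusted p = 0.00485). Its difference between STAT6-null and WT was -0.13 ± 0.11 (limma adjusted p = 0.303). Prf1 was higher in STAT6-null than in T-bet-null cells (0.67, adjusted p = 0.00211 in limma). Double-null cells also lay above T-bet-null cells, by 0.36 ± 0.11 (limma adjusted p = 0.0315), a call that was lost when any of those 4 libraries was left out (adjusted p from 0.0554 to 0.156). Between double-null and STAT6-null cells it gave -0.31 ± 0.11 (limma adjusted p = 0.0752). Prf1 passed the filter only through WT and STAT6-null library 1, where it was high. Calls on it that involve these genotypes are therefore no support for a difference.

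**Figure D2:**
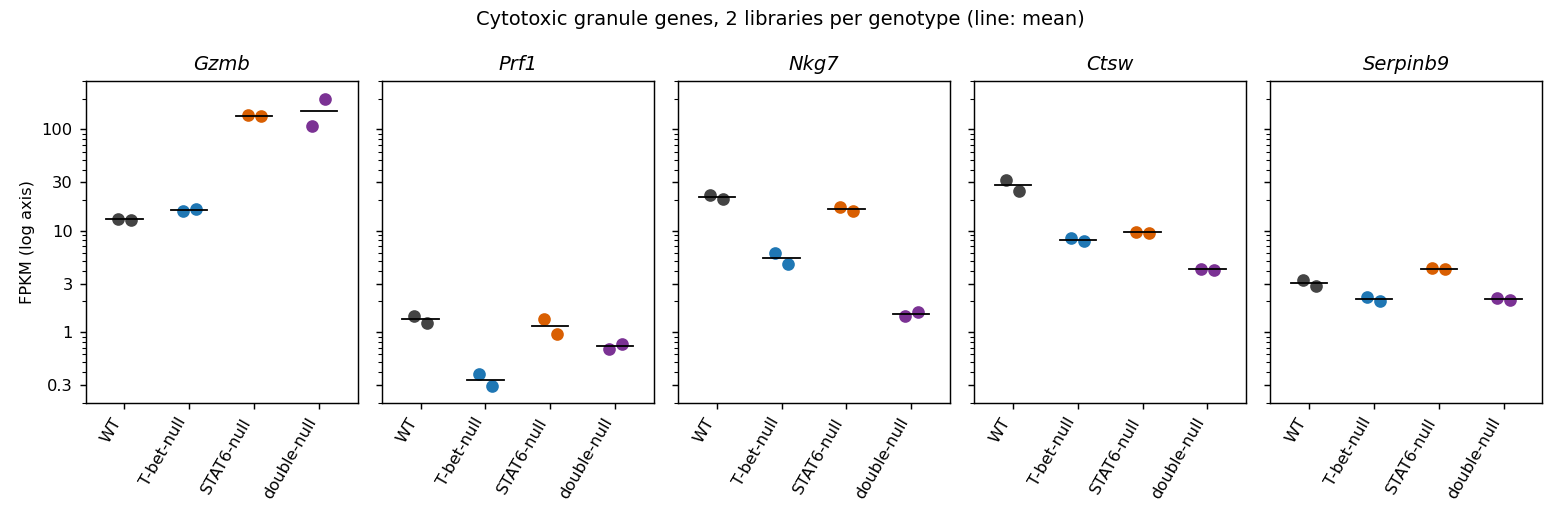
FPKM (log axis) of the 5 members in each library; points are libraries, coloured by genotype, and lines are means of 2. Gzmb lies between 109 and 197 FPKM in the 4 libraries without STAT6 and between 12.9 and 16.5 in the others, while Nkg7 and Ctsw are lowest in the double-null libraries.

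Nkg7 (Entrez Gene 72310, chr7:43437138-43438246), the granule membrane protein, stood at 22.5 and 20.5 FPKM in WT, 6.05 and 4.65 in T-bet-null, 17.2 and 15.6 in STAT6-null and 1.43 and 1.57 FPKM in double-null libraries. No genotypes overlapped, and the order was WT, STAT6-null, T-bet-null and double-null. The double-null level of 1.5 ± 0.0967 FPKM was 14.3 times lower than WT. It was also 10.9 times lower than STAT6-null and 3.56 times lower than T-bet-null.

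Without T-bet, Nkg7 was lower by log2 1.83 with STAT6 present (-1.83 ± 0.11) and by more in STAT6-null cells (-2.80 ± 0.11, limma adjusted p = 1.91e-06). The value with STAT6 present was against WT, whose libraries stood apart in other genes too. From cells with STAT6 to cells without it the difference was -0.37 ± 0.11 with T-bet present, again against WT (limma adjusted p = 0.013), and -1.34 ± 0.11 in T-bet-null cells (adjusted p = 7.13e-05). The first of these was the less firm: it gave -0.30 without WT library 1 (adjusted p = 0.084) or STAT6-null library 2 (adjusted p = 0.0879). The difference between the effects of STAT6 loss, -0.97 ± 0.15, was called as well (limma adjusted p = 0.000762). These log2 values are on FPKM + 1, and the added 1 shrinks those that involve the low double-null level. On whole steps, Nkg7 rested on 317 and 300 fragments in WT and on 19 and 23 in double-null libraries, and its level in double-null cells was 0.0702 of WT per depth (0.0501 to 0.0960, counting error only).

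Ctsw (Entrez Gene 13041, chr19:5465043-5468628), which encodes cathepsin W, stood at 31.3 and 24.6 FPKM in WT, 8.40 and 7.92 in T-bet-null, 9.80 and 9.46 in STAT6-null and 4.16 and 4.13 FPKM in double-null libraries. It was the most abundant member in WT. Unlike Nkg7, it was low in both kinds of single-null libraries, 3.43 times below WT without T-bet and 2.90 times without STAT6. Its double-null mean, 4.15 ± 0.0219 FPKM, was 6.75 times below WT.

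Without STAT6, Ctsw was lower by 1.44 ± 0.10 on the log2 scale in T-bet-sufficient cells (limma adjusted p = 2.84e-06). In T-bet-null cells it was lower by 0.83 ± 0.10 without STAT6 (limma adjusted p = 0.000547). Without T-bet, Ctsw was lower by 1.65 ± 0.10 with STAT6 present and by 1.05 ± 0.10 in STAT6-null cells (limma adjusted p = 0.000257). The values of 1.44 and 1.65 were against WT, whose libraries stood apart in other genes too. The difference between the effects of STAT6 loss was 0.60 ± 0.14 (limma adjusted p = 0.00598), which has the opposite sign to that of Nkg7. The single mutants differed by 0.21 ± 0.10 (limma adjusted p = 0.145), called in a fit of those 4 libraries alone (adjusted p = 0.0349) and without both WT libraries (adjusted p = 0.0415). Ctsw shares 10 bases at its end with Fibp, and without strand the reads of these bases cannot be assigned.

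Serpinb9 (Entrez Gene 20723, chr13:32997061-33017955), the inhibitor of granzyme B, stood at 3.23 and 2.82 FPKM in WT, 2.22 and 2.03 in T-bet-null, 4.28 and 4.14 in STAT6-null and 2.18 and 2.05 FPKM in double-null libraries. The STAT6-null libraries were highest, and the T-bet-null and double-null libraries overlapped. Its range over the genotypes was the narrowest of the 5 members, with the STAT6-null mean 1.99 times the double-null one. Serpinb9 did not share the high level of Gzmb in double-null cells.

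Serpinb9 was higher in STAT6-null cells than in WT by 0.37 ± 0.08 on the log2 scale (limma adjusted p = 0.00249). It was lower than WT in T-bet-null cells (-0.36 ± 0.08, limma adjusted p = 0.00314) and in double-null cells (-0.37, adjusted p = 0.00262). Among the mutants, the STAT6-null level was above T-bet-null (0.74, limma adjusted p = 0.000261), and the double-null level was below STAT6-null (-0.74, adjusted p = 0.000493). Double-null and T-bet-null cells gave -0.0049 ± 0.08 (limma adjusted p = 0.968). Serpinb9 has close paralogs, and the lncRNA gene Gm36181 shares 4902 bases of its span, so reads could be split between them.

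**Figure D3:**
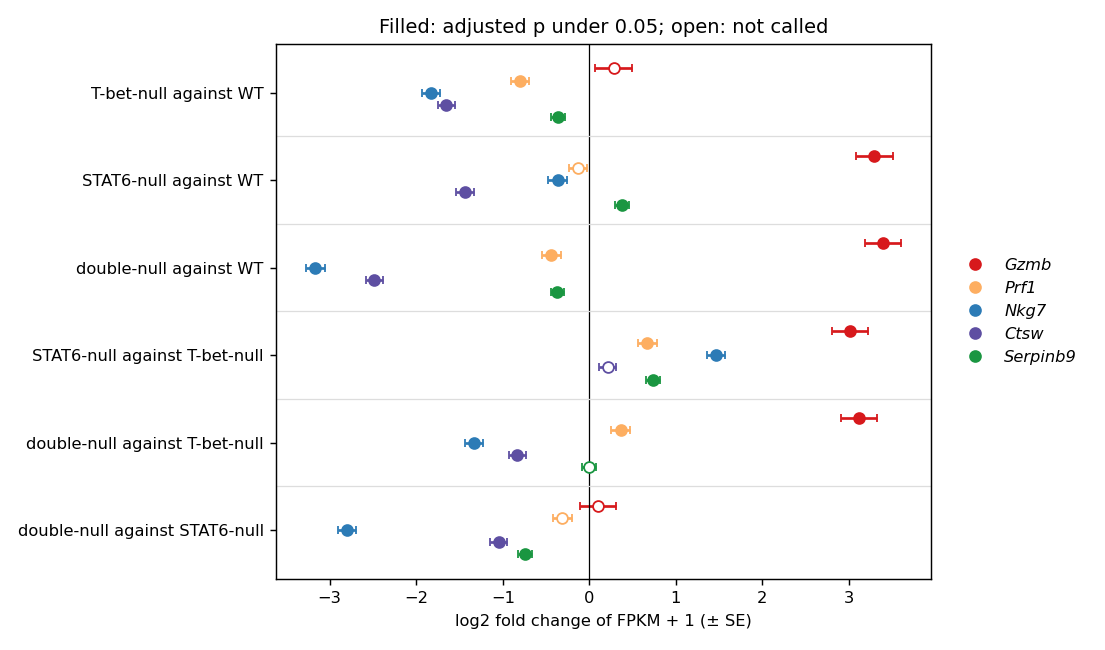
Log2 fold change of FPKM + 1 (x axis, ± SE) of each member in 6 comparisons; filled points passed an adjusted p of 0.05 in limma and open points did not. Gzmb lies near 3 wherever genotypes without and with STAT6 are compared, while Nkg7 and Ctsw lie to the left in each comparison of double-null cells.

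Counts of called members must be read against the whole table. Against WT, 4 of 5 members were called in T-bet-null cells, all lower, where 70.6% of all 10281 tested genes were called and 36.3% were called lower. In STAT6-null cells 2 were called higher and 2 lower (71.0% of all genes called), and in double-null cells 1 higher and 4 lower (73.0% called, 36.7% lower). With so many genes called, being called against WT sets the members little apart. Prf1 was tested only through WT and STAT6-null library 1, so its calls involving these genotypes are no support for a difference. Between STAT6-null and T-bet-null cells 4 of 5 were called, all higher in STAT6-null cells, where 27.2% of all genes were called and 12.3% were higher. Between double-null and T-bet-null cells Gzmb and Prf1 were higher and Nkg7 and Ctsw lower (32.6% called), and against STAT6-null cells Nkg7, Ctsw and Serpinb9 were lower (19.9% called, 8.63% lower). The difference between the effects of STAT6 loss was called in 4 members, all but Gzmb, where 57.3% of all genes were called. The calls on Prf1 and Serpinb9 were each lost in 4 of the 8 fits that left out 1 library, double-null library 2 among them (adjusted p = 0.0593 and 0.0508 without it). Gzmb gave -0.18 ± 0.30 there (limma adjusted p = 0.625), and it took both signs without 1 double-null library: 0.25 (adjusted p = 0.0302) without library 1 and -0.61 (adjusted p = 0.000683) without library 2. The medians of all genes lay between -0.03 and 0.01 in the 7 comparisons.

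How did Gzmb differ from Nkg7 and Ctsw? Within a library, the FPKM of Gzmb over that of Nkg7 was 0.584 and 0.629 in WT, 2.57 and 3.55 in T-bet-null, 8.01 and 8.64 in STAT6-null and 75.8 and 126 in double-null libraries. Each loss went with a higher ratio, and the double-null libraries stood far above the rest. The ratio of Gzmb to Ctsw was 0.419 and 0.523 in WT, 1.85 and 2.08 in T-bet-null, 14.1 and 14.2 in STAT6-null and 26.1 and 47.8 in double-null libraries. It rose in the same order.

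On the log2(FPKM + 1) scale, the libraries without STAT6 had a Gzmb to Nkg7 ratio higher by 4.06, and a Gzmb to Ctsw ratio higher by 4.34, than the libraries with STAT6. Libraries without T-bet had these ratios higher by 2.51 and 1.54. The added 1 shrinks the Gzmb to Nkg7 differences, as Nkg7 was low in double-null libraries. In the exact permutation test, two-sided and within levels of the other gene, each of the 4 differences had p = 0.0556, the smallest that 36 arrangements allow (0.0833 adjusted over 6 tests). The design therefore cannot reach 0.05 here. Every library followed the direction, but the members were chosen with earlier results of these data known. Neither the p-values nor that direction are therefore support for a difference.

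Nkg7 and Ctsw also differed from each other. The FPKM of Nkg7 over that of Ctsw was 0.717 and 0.832 in WT, 0.719 and 0.587 in T-bet-null, 1.76 and 1.65 in STAT6-null and 0.344 and 0.380 in double-null libraries. Nkg7 exceeded Ctsw in the STAT6-null libraries, and fell furthest below it in the double-null ones. The difference was -0.97 on the log2 scale for T-bet loss (exact permutation p = 0.111, adjusted 0.133) and 0.28 for STAT6 loss (exact permutation p = 0.389, adjusted 0.389).

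**Figure D4:**
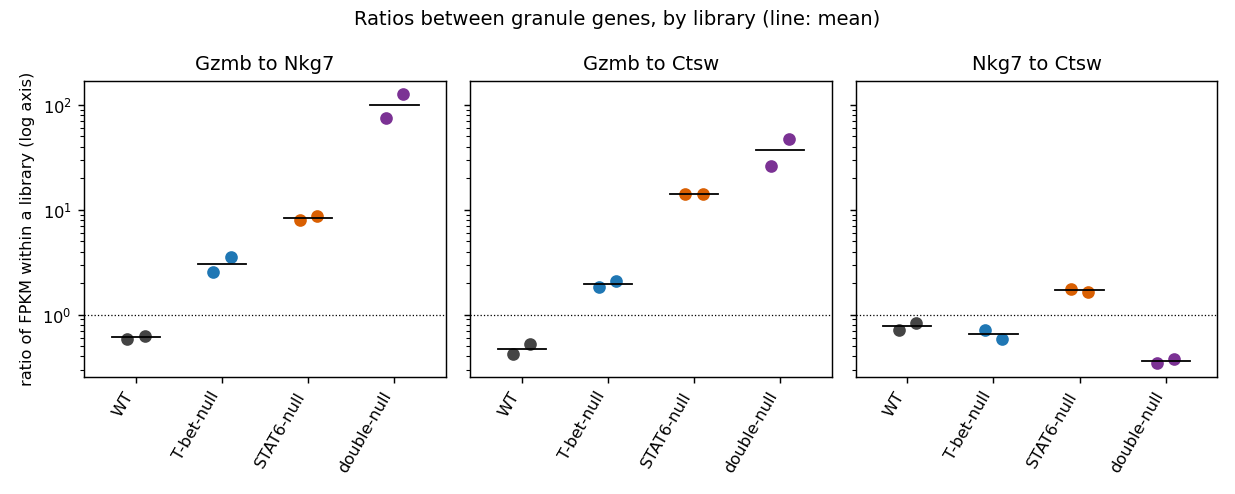
Ratio of FPKM of 2 members within each library (log axis); points are libraries, lines are means of 2, and the dotted line marks equal FPKM. Gzmb over Nkg7 goes from 0.584 in a WT library to 126 in a double-null library, while Nkg7 over Ctsw stays between 0.344 and 1.76.

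The genes whose levels followed Gzmb most closely over the 8 libraries were, by Pearson r of log2(FPKM + 1) among 1704 genes whose genotype means spanned at least 1 on that scale, Npas2 (0.993), 5830415F09Rik (0.991), Bcl3 (0.990), Fchsd1 (0.988) and Btbd9 (0.987). Bcl3, a nuclear partner of NF-kB, stood at 5.33 to 7.50 FPKM with STAT6 and 20.6 to 29.9 without it. Those most like Nkg7 were Ifi47 (0.977), Wnt3 (0.977), Fam46c (0.975), Gbp11 (0.971) and Gbp4 (0.965). Ifi47, Gbp11 and Gbp4 encode GTPases induced by interferon, and Gbp4 stood at 25.8 and 26.5 FPKM in WT and 7.67 and 8.30 in double-null libraries. Across these 8 libraries, in which replicates share a genotype, r was 0.874 between Nkg7 and Ctsw, -0.38 between Nkg7 and Gzmb and -0.67 between Ctsw and Gzmb. These r values are descriptions.

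Other granzyme genes were near the floor of the table. Gzma, which encodes granzyme A, stood at 0.128 and 0.370 FPKM in WT, 0.524 and 0.733 in T-bet-null, 2.31 and 1.65 in STAT6-null and 0.545 and 1.05 in double-null libraries. These are 2 and 6, 7 and 11, 35 and 26, and 8 and 17 fragments. The STAT6-null libraries were highest, and those of the other genotypes were all at or under 1.05 FPKM. Gzma was tested only because both STAT6-null libraries and double-null library 2 reached 1 FPKM, so a call on it is no support for a difference. Its log2 difference was 0.87 from T-bet-null to STAT6-null cells and -0.74 from STAT6-null to double-null cells. Gzmc lay between 0.391 and 1.03 FPKM and Gzmm between 0.166 and 0.468, and neither was tested. Gzmd, Gzme, Gzmf, Gzmg and Gzmk were not in the table. Gzma and Gzmm rested on at most 35 and 11 fragments in a library, so values this low are uncertain. Some granzyme genes also have close copies, between which reads could be split.

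Among all 15 listed toxins and cargo genes, 8 were tested, Gzma and Prf1 only through the genotypes where they were high. Between STAT6-null and T-bet-null cells 7 were higher and none lower (median log2 0.52, against -0.03 over all genes), and Srgn, the proteoglycan that packs granules, was the most abundant at 5283 to 8333 FPKM. Between double-null and T-bet-null cells 5 were higher and 1, Nkg7, was lower (median 0.30). Calr, a chaperone also found in granules (0.48, limma adjusted p = 0.0012), and Srgn (0.39, adjusted p = 0.00481) were among those higher. Between double-null and STAT6-null cells none was higher and 2 were lower, Nkg7 and Gzma. Of all genes, 27.2%, 32.6% and 19.9% were called in these comparisons, in that order. The counts of every list below must be read beside these shares too.

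Of 9 listed genes of granule proteases and granzyme processing 8 were tested. In STAT6-null against T-bet-null cells 4 were higher and 0 lower (median 0.41), led by the lysosomal proteases Ctsb (0.96, limma adjusted p = 0.000175), Lgmn (0.69) and Ctsd (0.64). Myeloid cells are rich in these proteases, and all 4 myeloid markers tested were called higher in the same comparison (median 0.80), with Lyz2 at 13.1 and 13.6 FPKM in STAT6-null and 2.49 and 3.59 in T-bet-null libraries. Their part was not tested. In double-null against STAT6-null cells 0 were higher and 5 lower (median -0.35), among them Ctsw, Ctsb (-0.64) and Cst7 (-0.44), which encodes cystatin F, an inhibitor of cathepsins. In double-null against T-bet-null cells 3 were higher and 1, Ctsw, lower. Ctsc, whose product activates granzymes, stood at 11.6 to 13.8 FPKM in all 8 libraries.

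Of 9 listed protease inhibitors 8 were tested, and 5 were higher and 1 lower in STAT6-null than in T-bet-null cells (median 0.46). Serpina3f (2.73), Serpina3g (2.40) and Serpinb1a (-0.98) differed by more than Serpinb9 there (0.74), and the other 4 by less. Serpina3g, which inhibits cathepsins in T cells, stood at 25.4 and 23.4 FPKM in WT, 26.4 and 26.0 in T-bet-null, 142 and 143 in STAT6-null and 49.6 and 63.7 in double-null libraries. Serpina3f, a close relative, read 5.74 and 5.48 FPKM in WT, 4.25 and 3.99 in T-bet-null, 33.8 and 32.3 in STAT6-null and 9.64 and 11.2 in double-null libraries. Both were thus highest in STAT6-null libraries, and double-null cells exceeded T-bet-null cells by 1.07 (limma adjusted p = 0.000156) and 1.16 (adjusted p = 3.05e-05). As close copies, Serpina3g and Serpina3f may share reads.

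Serpinb1a, an inhibitor of neutrophil-type proteases, followed another order: 5.39 and 4.94 FPKM in WT, 6.92 and 6.80 in T-bet-null, 2.82 and 3.19 in STAT6-null and 11.9 and 12.5 in double-null libraries. It was higher in double-null than in STAT6-null cells by 1.72 (limma adjusted p = 2.77e-06), where 4 inhibitors of the list were lower. Serpinb6a lay at 9.82 to 12.4, Serpinb6b at 5.47 to 9.03, Cst3 at 44.5 to 70.4 and Cstb at 29.6 to 35.0 FPKM. Serpinb9b was not in the table.

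Genes of granule transport and release were split. Of 22 listed, 18 were tested, with 4 higher, 2 lower and 12 not called between STAT6-null and T-bet-null cells (median 0.06). Rab27a, the GTPase that docks granules, stood at 52.7 and 50.5 FPKM in STAT6-null and 19.9 and 20.9 in T-bet-null libraries (1.30, limma adjusted p = 1.9e-06), and its binding partner Sytl1 was lower there (-1.19, adjusted p = 0.000114). Vamp8, a fusion protein of vesicles (0.81), and Sytl3 (0.38) were higher. Between double-null and T-bet-null cells 4 were higher and 3 lower: Rab27a (0.66) and Stx11, a syntaxin of granule fusion (0.60), were higher, and Sytl2 (-0.91) and Lyst (-0.53) lower. Between double-null and STAT6-null cells 2 were higher, Sytl1 (1.04) and Stx11 (0.46), and 4 lower, among them Rab27a (-0.64) and Sytl2 (-0.54). Of all genes, 19.9% were called there. The counts against T-bet-null cells were near the shares of all genes called, 27.2% for STAT6-null and 32.6% for double-null cells, so they set this list little apart.

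Killing through death receptors uses other genes, and all 8 listed were tested. Fasl, the ligand of Fas, was the gene called between STAT6-null and T-bet-null cells (-0.36, limma adjusted p = 0.00141), with no gene higher. Of all genes 27.2% were called there. Between double-null and T-bet-null cells 0 were higher and 3 lower: Ltb (-0.41), Fasl (-0.38) and Lta (-0.35). That count was near the 32.6% of all genes called. In the next comparison 19.9% of all genes were called. Between double-null and STAT6-null cells 0 were higher and 3 lower, with Lta at -0.50, Ltb at -0.39 and Tnfsf10, which encodes TRAIL, at -0.32. Against WT, where Gzmb was higher, more of these genes fell than rose. In STAT6-null cells 2 were higher, Fas (0.22) and Tnfsf10 (0.34), and 4 lower (71.0% of all genes called). The lower ones included Ltb (-1.04), Lta (-0.72) and Fasl (-0.54). In double-null cells 1 was higher, Fas (0.23), and 3 lower: Ltb (-1.43), Lta (-1.22) and Fasl (-0.56), with 73.0% of all genes called.

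Of 27 listed factors of cytotoxic programmes 26 were tested, Eomes not being in the table. Prdm1, which encodes Blimp-1, stood at 51.1 and 50.8 FPKM in STAT6-null, 32.1 and 33.8 in double-null and 21.0 and 21.0 in T-bet-null libraries. Between STAT6-null and T-bet-null cells 13 were higher and 7 lower (median 0.25), with Prdm1 at 1.24 (limma adjusted p = 3.6e-06), Notch1 at 0.88, Gata3, the Th2 factor, at -1.19 and Tbx21, which was deleted in the T-bet-null cells, at 5.30. Between double-null and T-bet-null cells 11 were higher and 5 lower (median 0.09). Zeb2, a repressor of memory genes (1.09, limma adjusted p = 4.38e-05), Hopx (0.89) and Batf (0.76) were higher, and Gata3 (-0.87) was lower. Between double-null and STAT6-null cells 3 were higher and 8 lower: beside Tbx21 itself these included Prdm1 (-0.61), Notch1 (-0.51) and Runx3, a factor of cytotoxic T cells (-0.47).

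Of 19 listed surface genes of cytotoxic helper cells 16 were tested. Between STAT6-null and T-bet-null cells 11 were higher and 2 lower (median 0.38), led by the receptors Havcr2 (1.91, limma adjusted p = 3.87e-07), Klrc1 (1.63), Lag3 (1.32) and Il18rap (0.70). Between double-null and T-bet-null cells 6 were higher and 1 lower: Havcr2 (1.34), Klrc1 (0.98) and Il18rap (0.58) were higher, and Il15ra (-0.48) was lower. Between double-null and STAT6-null cells 2 were higher and 5 lower, including Lag3 (-0.97), Il15ra (-0.79), Klrc1 (-0.64) and Havcr2 (-0.57). Klrk1 was tested only because both STAT6-null libraries reached 1 FPKM, and Cx3cr1 only because both WT libraries did. A call on either that involves that genotype is no support for a difference.

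Over all 7 lists without the members, 87 genes were tested. They include Tbx21, whose level the genotypes fix, and Gzma, Klrk1 and Cx3cr1, tested only through libraries where they were high. The lists were also chosen with earlier results of these data known. A share above that of all genes is therefore no support for a difference. In STAT6-null against T-bet-null cells 40 were higher and 13 lower (60.9% called, against 27.2% of all genes). In double-null against T-bet-null cells 31 were higher and 12 lower (49.4%, against 32.6%), and against STAT6-null cells 8 were higher and 28 lower (41.4%, against 19.9%). The comparisons with WT gave 28 higher and 39 lower in T-bet-null, 40 and 31 in STAT6-null and 36 and 29 in double-null cells. Those shares, 77%, 81.6% and 74.7%, were near the 70.6%, 71.0% and 73.0% of all genes. The comparisons share libraries and are not independent of each other.

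**Figure D5:**
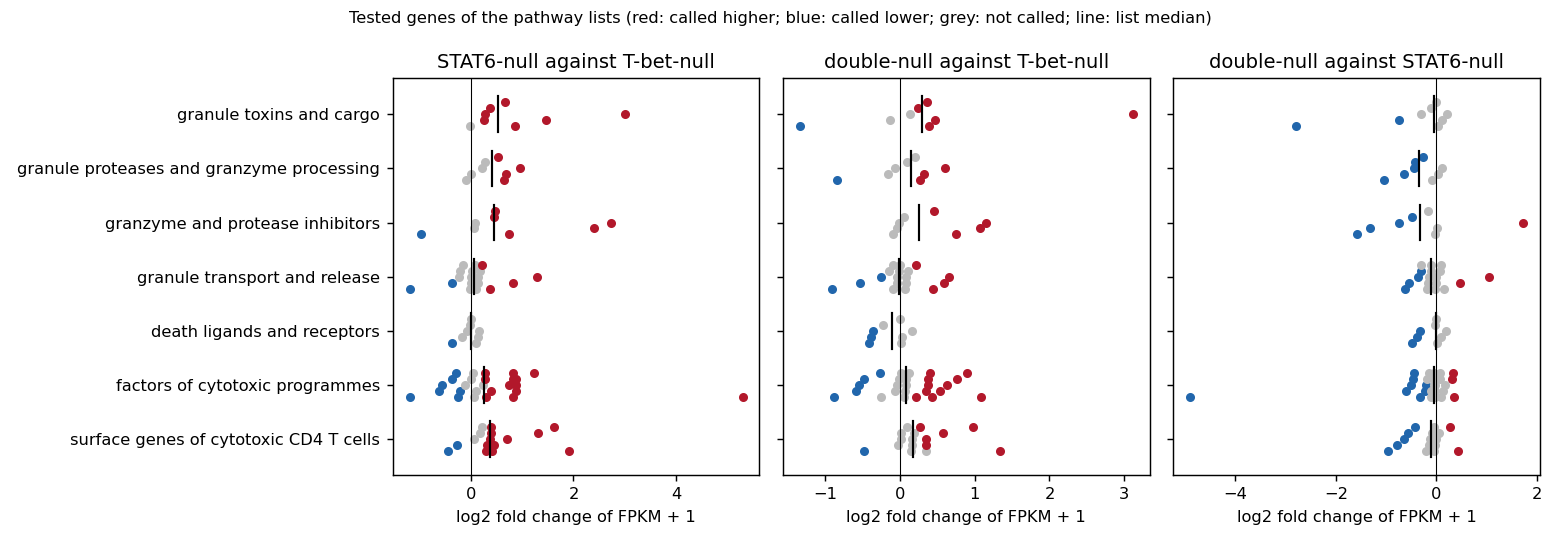
Log2 fold change of FPKM + 1 (x axis) of the tested genes of 7 lists in the 3 comparisons without WT; red points were called higher and blue points lower in limma, grey points were not called, and black lines are list medians. Gzmb is the far right point of the toxins when STAT6-null or double-null cells are set against T-bet-null cells, and Nkg7 the far left point of the toxins when double-null cells are compared.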

How the data were processed

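RNA was measured by sequencing in 8 libraries of CD44+ CD4+ T cells, 2 for each of 4 genotypes. The authors deposited FPKM values, made with Cufflinks on mm10 per the submitters' processing notes, with RefSeq genes as the table's name states. The sources used here give no aligner, no version of Cufflinks and no statement on strand. All 11906 lines hold no value at or under 0.1 FPKM. For 43 symbols listed more than once, the most abundant line was kept, which left 11841. All 5 members stood on 1 line each.

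The limma package 3.58.1 in R 4.3.3 was fitted to log2(FPKM + 1) of the 10281 genes with at least 1 FPKM in at least 2 libraries, with a mean per genotype and an intensity trend. Tests were two-sided, with Benjamini-Hochberg adjustment over all genes within each comparison, with a threshold of 0.05. The procedure was also run on simulated data in which far fewer genes changed than were called here. That run therefore does not check fits with so many calls. Ratios between members were tested by exact permutation of libraries. Values of low genes were tested for whole steps, which gave relative depths from 0.856 to 1.04. Python 3.11.15, pandas 2.3.3 and SciPy 1.17.1 were used. Motif letters were searched in RefSeq promoter windows of GRCm38.p6.

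The members are named in every comparison. Of each pathway list, up to 4 called genes with the largest change are named, with any granzyme or protease inhibitor. Members and lists were chosen with earlier results of these data known. Alternatives covered pseudocounts, filters, scaling, the variance model, the libraries fitted and a replicate block.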

Additional observations from a re-analysis of the deposited data

Results flagged for a closer look

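In 4 members the effect of STAT6 loss differed between cells without and with T-bet, by the interaction test in limma over all genes, in which 57.3% of genes were called. The difference was -0.97 on the log2 scale in Nkg7 (adjusted p = 0.000762), whose level dropped further with STAT6 loss when T-bet was absent. It was 0.60 in Ctsw (adjusted p = 0.00598), whose drop was smaller when T-bet was absent. It was 0.49 in Prf1 (adjusted p = 0.0214), which was higher without STAT6 when T-bet was absent, and -0.38 in Serpinb9 (adjusted p = 0.0186), which was higher without STAT6 when T-bet was present. The last 2 calls were each lost in 4 of the 8 fits that left out 1 library (adjusted p from 0.0593 to 0.0816 in Prf1 and from 0.0508 to 0.0673 in Serpinb9). The test uses the WT libraries, which also stood apart in erythroid and Y-linked genes, and their part was not tested. Prf1 was tested only through WT and STAT6-null library 1, where it was high, so its call is no support for a difference.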

How the results depend on the processing

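Of the Gzmb, Nkg7 and Ctsw differences of more than 1 on the log2 scale, all kept direction and call under every setting run. When 1 library was left out, the lone library left was assumed to vary like the other genotypes. The number of called genes then ranged from 1631 to 3308 for double-null against T-bet-null (3351 with all), 840 to 2074 for double-null against STAT6-null (2044) and 1443 to 3084 for STAT6-null against T-bet-null (2799). For double-null against T-bet-null, Prf1 ranged from 0.31 to 0.41 and Serpinb9 from -0.048 to 0.038. Gzmb ranged from 0.24 to 0.32 for T-bet-null against WT and from -0.33 to 0.53 for double-null against STAT6-null. Nkg7 ranged from -0.44 to -0.30 for STAT6-null against WT, and Ctsw from 0.18 to 0.25 between the single mutants. The difference between the effects of STAT6 loss ranged from -0.61 to 0.25 in Gzmb, 0.36 to 0.62 in Prf1 and -0.45 to -0.31 in Serpinb9. In Prf1 it was no longer called without STAT6-null library 2, T-bet-null library 2, WT library 1 or double-null library 2 (adjusted p from 0.0593 to 0.0816), and in Serpinb9 without STAT6-null library 1, T-bet-null library 1, WT library 2 or double-null library 2 (0.0508 to 0.0673). Fitting only the libraries compared called Gzmb in T-bet-null against WT (0.28) and Ctsw between the single mutants (0.21), the latter also without both WT libraries (0.21), an alternative chosen after seeing the data. Quantile normalization turned Prf1 in STAT6-null against WT to 0.042 and Serpinb9 in double-null against T-bet-null to 0.027, neither called. Ranking by Spearman's rho kept 1 of the 10 genes most like Gzmb and Nkg7. The cause of these shifts was not tested. A minimum of 5 FPKM left Prf1 and Serpinb9 untested. The replicate numbers did not pair libraries (correlations of deviations from -0.09 to 0.09). With the number as a replicate block 3091 genes were called for double-null against T-bet-null and 2660 for STAT6-null against T-bet-null, and no call on a member changed. Depth limits Prf1, Gzma and Gzmm, with at most 62, 35 and 11 fragments in a library.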

Other observations

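The genes that differed most between the double-null libraries were read after the spread of Gzmb had been seen. Among 3674 genes of at least 16 FPKM in that genotype, Gzmb had the 7th highest ratio of library 2 to library 1. Npy, which encodes neuropeptide Y, came 5th, at 103 and 216 FPKM, against 11.2 to 27.6 FPKM in the other 6 libraries. Npy thus shared with Gzmb a high level and a wide spread in double-null cells, but not the high level in STAT6-null cells, where it stood at 23.7 and 27.6 FPKM. The Y-linked genes Kdm5d (1.42 and 3.98 FPKM) and Uty (1.43 and 3.33) also differed between these libraries.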
